A study of Mus musculus with 2 samples.

Results

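The genes of lactate and pyruvate exchange, Ldha, Ldhb, Slc16a1, Slc16a3, Bsg, Mpc1 and Mpc2, were chosen by name, and every non-control probe whose transcript accession belongs to them was taken from both arrays. They are 7 of 20659 genes named on the array, with 11 probes on 20 spots, and all 7 were among the 10223 genes measured on both arrays. Cells of the high sensor ratio were SoNar-high blood cells of mouse fetal liver at E13.5, labelled strain C57BL/6, and they were compared with SoNar-low blood cells of the same tissue and stage, labelled strain C57BL. SoNar is a fluorescent protein sensor that reads the balance of NADH and NAD+ in the cytosol, and the cells were separated by the ratio of its fluorescence under a pair of excitation wavelengths. The comparison asks how expression differs with the sensor ratio. Total RNA was hybridised in 1 colour (Cy3) to 1 Agilent whole-genome array per population, both read in the same slide scan, so there are no replicates and no p-value, and precision is limited by the number of arrays. How many embryos were used for each sample was not found in the labels.

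Lactate dehydrogenase is a tetramer of LDHA and LDHB subunits that interconverts pyruvate and lactate in the cytosol, with NADH oxidised to NAD+ when lactate is formed. Lactate and pyruvate cross the plasma membrane together with a proton through monocarboxylate transporters, of which MCT1 (Slc16a1) is widespread and MCT4 (Slc16a3) is typical of cells that export lactate, and both depend on basigin (Bsg) to reach the cell surface. Pyruvate enters mitochondria through a carrier formed by MPC1 and MPC2, where it is oxidised. Erythroid cells keep glycolysis as they mature and lose their mitochondria, and the fetal liver is the main site where they form at this stage.

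Levels are given as the processed signal, the background-subtracted spot brightness of the scanner software in arbitrary units. Differences are on the log2 scale, SoNar-high minus SoNar-low, after division of each array by the 75th percentile of its non-control spots (187 units for SoNar-high cells, 222 units for SoNar-low cells), and a positive value is higher in SoNar-high cells. Signals of different probes are not compared with each other. By the flag of the scanner software, 49.4% of 43020 spots on the SoNar-high array exceeded background well, and 42.4% on the SoNar-low array. The spots of 213 probes printed 10 times had a median SD of 0.15 for this log2 difference (range 0.06 to 0.53), and the scanner software's own error for a pair of spots was 0.20 to 0.30 for the members. These errors describe the spot alone, and variation between embryos, cell sorts and labellings is not in them. The difference also varied with position on the slide: its median over the neighbouring spots within 15 rows and 6 columns ranged between -0.53 and 0.21 across the array, and that local median is given beside the members that it moved most. These local medians had a median of -0.08. Subtracting them (local centring) therefore also raised the median over all genes by 0.09, apart from any effect of position.

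Of the 7 genes, 0 were at least 2-fold higher in SoNar-high cells, where 5.28% of all measured genes were, and 0 were at least 2-fold lower, where 4.44% were (9.72% in either direction). At 1.5-fold, 0 were higher (13.8% of all measured genes) and only Mpc1 was lower (17.7%; 31.5% in either direction). Of the 11 probes, 0 were past 2-fold (9.51% of all measured probes), 1 was at least 1.5-fold higher (13.2%) and 1 lower (17.7%). Negative differences were seen for 5 members (55.8% of all measured genes) and positive ones for 2 (44.2%). Their median was -0.17, against -0.08 for all measured genes. Slc16a3 had the highest value of the 7 and Mpc1 the lowest. In these counts a gene stands for its brightest measured probe. The 1.5-fold count changed with the setting. Slc16a3 was past 1.5-fold higher after quantile normalization, loess and local centring, and in the deposited table. It was also past it with either scaling to detected spots and with either summary over probes. In these settings Slc16a3 had 0.59 to 0.81, and Mpc1 had -0.52 to -0.18, not past 1.5-fold. Mpc1 was past it only in settings that left its value at -0.59.

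**Figure D1:**
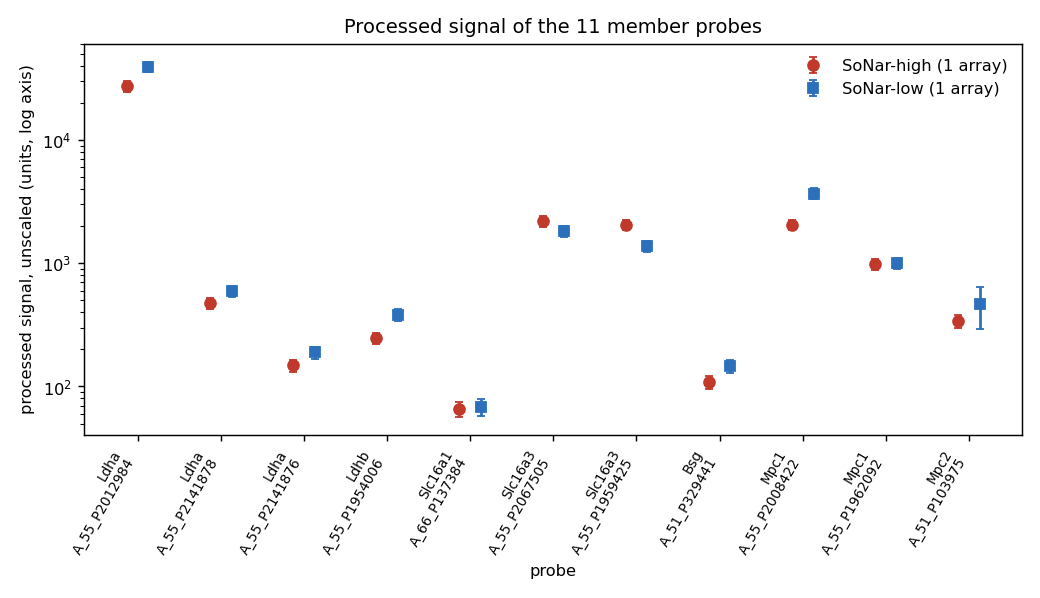
Processed signal (log axis, arbitrary units, before scaling) of each of the 11 probes on the SoNar-high array (circles) and the SoNar-low array (squares). Bars are the scanner software's error of the spot and, for Mpc2, the SD over its 10 spots. Both Slc16a3 probes were brighter on the SoNar-high array, and the other 9 probes were brighter on the SoNar-low array before scaling.

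Both lactate dehydrogenase subunit genes were slightly below 0. The brightest probe of Ldha, the subunit that predominates in glycolytic tissues, had a processed signal of 27337 units in SoNar-high cells and 39287 units in SoNar-low cells, a scaled difference of -0.27 (1.21-fold lower). Its neighbouring spots had a local median of -0.12, and after this was subtracted the probe was at -0.15. The other probes of the same accession had 476 units in SoNar-high and 596 units in SoNar-low cells (-0.07), and 148 units in SoNar-high and 190 units in SoNar-low cells (-0.10). The 3 Ldha probes thus lay within 0.20 of each other, a gap close to the error of a spot pair. Both of the dimmer probes turned positive under some scalings, up to 0.08. Ldhb, the subunit that predominates in oxidative tissues, had 247 units in SoNar-high cells and 382 units in SoNar-low cells on its only probe, a difference of -0.38 (1.30-fold lower). The neighbouring spots of that probe had a local median of -0.22, and after this was subtracted Ldhb was at -0.15. The RefSeq table names 3 pseudogenes after Ldha and 1 after Ldhb, and whether these probes also bind their transcripts was not tested.

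The shift of Ldha relative to Ldhb does not depend on how the arrays are scaled by a constant. It was 0.10 with the brightest Ldha probe and 0.30 and 0.27 with the others. For such a difference of differences the spot error is 0.21, which the brightest probe did not exceed and both dimmer probes did. Each value also carries the scanner error of Ldhb (0.21) together with that of the Ldha probe (0.20 to 0.22). Passing 0.21 thus does not place a shift beyond the scanner error. After local centring the brightest probe gave -0.0015 and the dimmer ones 0.059 and 0.20, none above 0.21. With the brightest Ldha probe or a summary over its probes, the shift was above 0 in 10 of 14 settings and below 0 in 4, between -0.03 and 0.27. Settings that only rescale by a constant, change the filter or take the median over spots returned the same 0.10. Quantile normalization and the deposited value table, both below 0, nearly repeat each other. No direction is given.

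Among the transporters, Slc16a3 differed most. Its brighter probe had 2208 units in SoNar-high cells and 1830 units in SoNar-low cells (0.52, 1.44-fold higher), and its other probe had 2054 units in SoNar-high and 1371 units in SoNar-low cells (0.84, 1.78-fold higher). Of all measured genes, 16.0% had a difference above 0.52 and 7.80% one above 0.84. Both probes exceeded the spot error of 0.15 and the scanner error of 0.20, and neither reached 2-fold. Only the second did so under other settings, at 1.00 after quantile normalization and 1.02 after loess. It also did in the value table (1.03), which nearly repeats quantile normalization. The brighter probe lay in a region where the neighbouring spots had a median of -0.28, and the other in one at -0.01. With the local median subtracted the probes had 0.81 and 0.85. The brighter probe also depended on the signal used: its pixel median, without the scanner's corrections, was 1937 units in SoNar-high cells and 2047 units in SoNar-low cells, and normexp background correction of these medians gave 0.12, or 0.56 with the local median subtracted. The other probe had 0.85 after normexp.

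Slc16a1 was near the lower end of what the arrays measure. Its only probe had 65.2 units in SoNar-high cells and 68.5 units in SoNar-low cells (0.18), below its scanner error of 0.30. The pixel median of that spot was 162 units in SoNar-high cells, where negative control spots ranged between 79.0 and 112 units. In SoNar-low cells it was 168 units, where these controls ranged between 60 and 104 units. Its sign turned after quantile normalization (-0.03) and in the deposited value table (-0.02), which nearly repeats that setting. Bsg, the chaperone of both transporters, had 108 units in SoNar-high cells and 146 units in SoNar-low cells (-0.17), a difference smaller than its scanner error of 0.24. It was negative in all 14 settings, from -0.29 to -0.02. The filters, the summaries over probes and the median over spots cannot move a probe of 1 spot, so those settings repeat -0.17. The local median around the Bsg probe was 0.11, and the value of -0.29 is the one after it was subtracted. On the scale of differences, Slc16a3 stood 0.34 above Slc16a1 with its brighter probe and 0.66 above it with the other, and Bsg stood at -0.36 relative to Slc16a1. Each of these values carries the scanner error of Slc16a1 (0.30) together with that of the other probe (0.20 for Slc16a3, 0.24 for Bsg). The order of Slc16a3 above Slc16a1 held in all 13 settings that measured both, with a range of 0.07 to 0.72. Scaling by a constant cancels in this difference, so the settings that only rescale repeat 0.34 and add no evidence. Keeping dim probes and the median over spots also left it at 0.34.

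**Figure D2:**
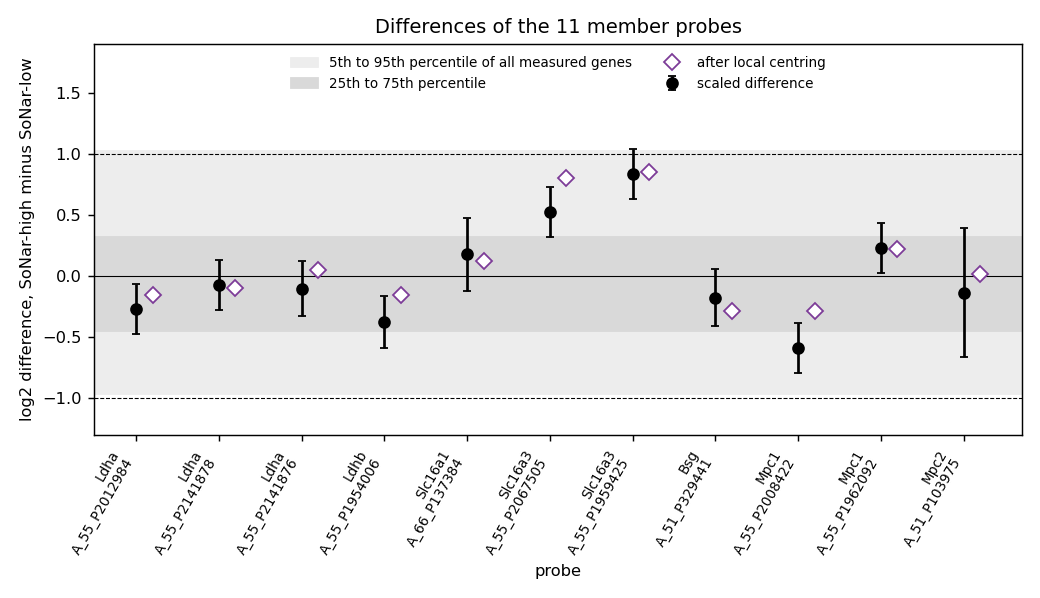
Scaled log2 difference (SoNar-high minus SoNar-low) of each probe with the scanner software's error of the spot pair or, for Mpc2, the SD over 10 spots. Open diamonds are the same values after the median difference of the neighbouring spots was subtracted, grey bands hold the central share of all 10223 measured genes, and dashed lines mark 2-fold. The probes of Slc16a3 come to 0.81 and 0.85 after local centring, and those of Mpc1 stay on opposite sides of 0.

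The probes of Mpc1, a subunit of the mitochondrial pyruvate carrier, disagreed in sign. The brighter probe had 2055 units in SoNar-high cells and 3678 units in SoNar-low cells (-0.59, 1.5-fold lower), and the other had 987 units in SoNar-high and 1001 units in SoNar-low cells (0.23, 1.18-fold higher). Both carry the same transcript accession. The gap of 0.82 between them is larger than the spot error, and 18.8% of the 2021 genes with more than 1 measured probe had a gap at least as large. The neighbouring spots had a local median of -0.30 around the brighter probe and 0.01 around the other. After local centring the probes had -0.28 and 0.22, a gap of 0.50, so no direction is given for Mpc1. The RefSeq table names 1 pseudogene after Mpc1.

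Mpc2, the other subunit, was the only member with repeated spots. On the SoNar-high array its 10 spots had a lowest signal of 283 units, a median of 336 and a highest of 423 (mean 339 ± 42.3, SD over spots), and on the SoNar-low array a lowest of 285, a median of 391 and a highest of 714 (mean 466 ± 173). All but the lowest SoNar-high spot lay within the range of the SoNar-low spots, which reached much higher. On the SoNar-low array 3 spots, at rows 113, 117 and 396, had 707, 714 and 711 units, and the other 7 lay between 285 and 422 units, whereas the same 3 spots had 311 to 344 units on the SoNar-high array. The mean log2 difference was -0.14 ± 0.53 (SD over 10 spots of 1 array pair) and the median over spots was 0.03 with the spot differences taken one by one. Its SD was the largest of the 213 probes printed 10 times, on the SoNar-low array (0.50) as in the difference. The 3 bright spots lay where neighbouring spots had local medians of -0.39 to -0.30, and the other 7 where these were -0.19 to 0.06. Subtracting the local median left an SD of 0.41, and the source of the spread was not tested. No difference in Mpc2 was detectable beyond the spread of its spots.

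**Figure D3:**
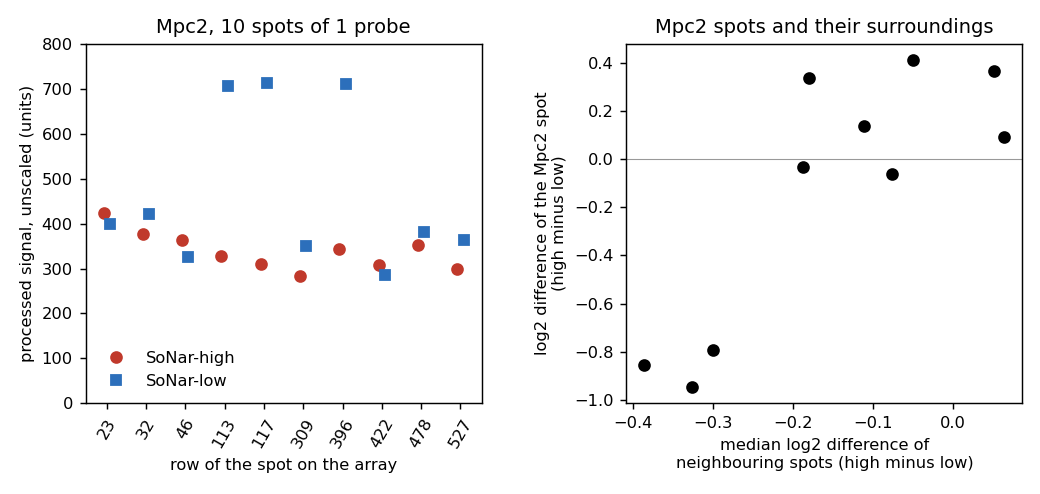
Left, processed signal (arbitrary units) of the 10 Mpc2 spots on the SoNar-high (circles) and SoNar-low (squares) arrays, in order of their row on the array. Right, the log2 difference of each spot against the median difference of its neighbouring spots; the 3 spots at 707 to 714 units on the SoNar-low array are the 3 points at the lower left.

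Related genes were taken from lists of the same pathways. Of all measured genes, 5.28% were at least 2-fold higher and 4.44% lower (9.72% in either direction). A short list with none past 2-fold is therefore not a result about that list. With the percentile taken over detected spots each log2 difference is 0.15 higher, so those of Gapdh, Slc16a6 and Slc16a7 below turn positive, as do the list medians of the pyruvate enzymes (0.085), the NADH enzymes (0.15) and the hypoxia genes (0.029). Of 18 relatives of the members (other lactate dehydrogenases, other monocarboxylate transporters, sodium-coupled carriers and the lactate receptor Hcar1), 4 were measured on both arrays, 9 were not well above background on either array, 4 were above it in SoNar-high cells alone, with bounds under 2-fold, and Slc16a13 had a separate probe above background on each array. Slc16a12, a creatine transporter, had 652 units in SoNar-high cells and 189 units in SoNar-low cells (2.04, 4.12-fold higher). It was the only one of the 4 past 2-fold. Slc16a10, a carrier of aromatic amino acids, had 158 units in SoNar-high and 136 units in SoNar-low cells (0.47), and Slc16a6 had 1288 units in SoNar-high and 1544 units in SoNar-low cells (-0.01). The further lactate transporter gene Slc16a7 (MCT2) had 49.3 units in SoNar-high and 62.3 units in SoNar-low cells (-0.08), and was named after its value was seen.

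All 6 genes of the basigin family and its partners were measured, and none was past 2-fold (median 0.18). Slc3a2, the heavy chain shared by several amino acid transporters and found in complexes with basigin, had 2222 units in SoNar-high cells and 1567 units in SoNar-low cells (0.76). Nptn, a relative of basigin that can also accompany monocarboxylate transporters, had 1508 units in SoNar-high and 3013 units in SoNar-low cells (-0.75), and its other probe had -0.18. Ppia, the cyclophilin that binds basigin, had 43118 units in SoNar-high and 42405 units in SoNar-low cells (0.28).

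Of 13 enzymes that make or use pyruvate, 10 were measured, with a median of -0.07. Pcx, the carboxylase that turns pyruvate into oxaloacetate, was the only one at least 2-fold higher, with 199 units in SoNar-high cells and 88.0 units in SoNar-low cells (1.43, 2.70-fold higher). Pklr, the pyruvate kinase of red cells and liver, was above background in SoNar-high cells alone, with 117 units there against 31.8 units in SoNar-low cells, and was at least 3.76-fold higher. Pkm, the pyruvate kinase of most other tissues, had 1886 units in SoNar-high and 1949 units in SoNar-low cells (0.21). At least 2-fold lower were 2 genes of the pyruvate dehydrogenase complex, Dld (-1.01, named after its value was seen; its other probe had -0.60) and Pdhx (-1.14). Neither was 2-fold lower with the percentile over detected spots, at -0.85 for Dld and -0.99 for Pdhx.

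Among enzymes that make or use NADH in the cytosol, 3 of 4 were measured and none was past 2-fold. Mdh1, the cytosolic malate dehydrogenase, had 2609 units in SoNar-high cells and 5659 units in SoNar-low cells (-0.86), while Gapdh had 51362 units in SoNar-high and 61493 units in SoNar-low cells (-0.01, its 7 probes between -0.27 and 0.15). Gpd1l had 40.9 units in SoNar-high and 46.8 units in SoNar-low cells (0.06). Gpd1, the glycerol phosphate dehydrogenase, likewise passed background in SoNar-high cells alone, with 69.1 units there against 28.9 units in SoNar-low cells, and was at least 2.22-fold higher.

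Ldha and Slc16a3 are both known targets of the hypoxia-inducible factor HIF-1. Of 20 genes of the hypoxia response, 17 were measured. By the brightest probe none was past 2-fold, where 9.72% of all measured genes were, with 8 above 0, 9 below 0 and a median of -0.13. A dimmer probe of Epas1, which encodes HIF-2 alpha, was past 2-fold at 1.904, while its brightest had 0.43. Probes of 3 genes of the list had opposite signs, among them Bnip3, a mitophagy gene, with -0.54 on its brightest probe and 0.76 on the other. Epas1 and Bnip3 were named after their values were seen. Ndrg1 had 143 units in SoNar-high cells and 107 units in SoNar-low cells (0.67), Ddit4 had 389 units in SoNar-high and 717 units in SoNar-low cells (-0.63), and Aldoa, the aldolase of most tissues, had 18719 units in SoNar-high and 17272 units in SoNar-low cells (0.37). Slc16a3 lay among the genes of this list above 0 and Ldha among those below.

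**Figure D4:**
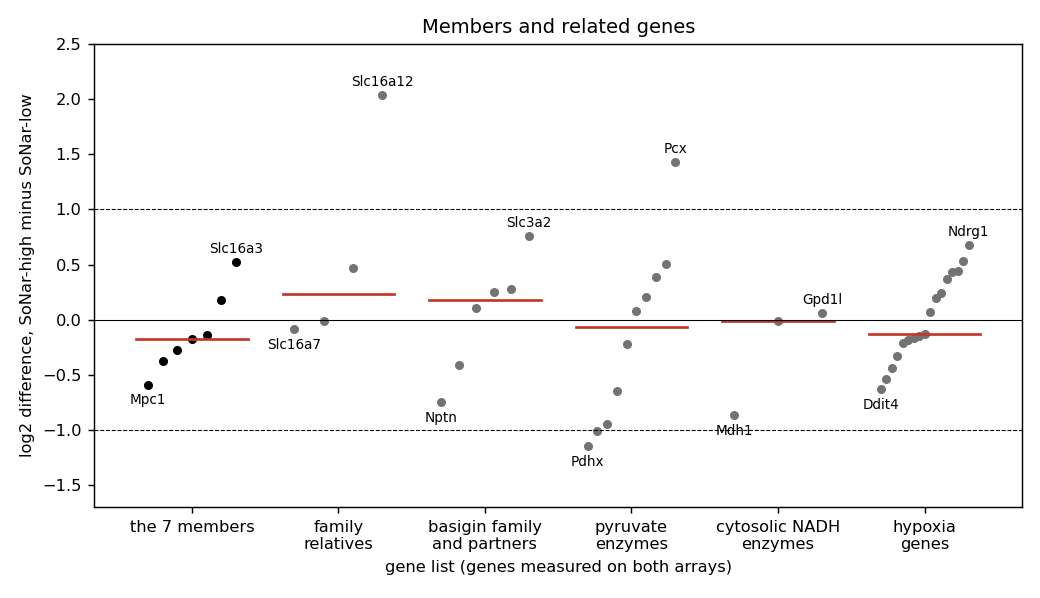
Log2 difference (SoNar-high minus SoNar-low) of the 7 members and of the measured genes of 5 related lists, with the median of each list as a red line and 2-fold as dashed lines. The gene with the lowest and the highest value is named in each list. The members lie between -0.59 and 0.52, and Slc16a12 (2.04) and Pcx (1.43) are the related genes above 2-fold.

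A form of the core letters bound by HIF-1, ACGTG, was searched on both strands in the 250 bases before each RefSeq start site of the members (GRCm38.p6; 8 windows of 6 genes, Bsg is named only). The other form, GCGTG, was not searched and is not marked, so a window without a match can still hold it. A match is a description and not evidence of binding. Of all 32851 windows of that length in the table, 16.6% held at least 1 match. The windows of Ldha, Slc16a1 and Slc16a3 that held a match are shown, in the direction of transcription and 5′ to 3′, with these letters in capitals on either strand. Whether a match bears on the differences of these members was not tested.
Ldha, chr7:46845554-46845803, plus strand: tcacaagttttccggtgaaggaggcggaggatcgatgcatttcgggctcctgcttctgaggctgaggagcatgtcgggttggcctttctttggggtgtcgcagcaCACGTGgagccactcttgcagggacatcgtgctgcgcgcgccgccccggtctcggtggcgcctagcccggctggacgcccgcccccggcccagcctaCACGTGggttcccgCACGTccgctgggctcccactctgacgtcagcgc
Slc16a1, chr3:104638414-104638663, plus strand: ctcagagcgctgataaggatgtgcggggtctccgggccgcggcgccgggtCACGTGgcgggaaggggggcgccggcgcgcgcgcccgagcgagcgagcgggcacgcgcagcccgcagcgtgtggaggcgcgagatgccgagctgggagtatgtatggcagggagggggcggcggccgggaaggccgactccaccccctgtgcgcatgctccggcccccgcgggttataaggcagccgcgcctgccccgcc
Slc16a3, chr11:120948817-120949066, plus strand: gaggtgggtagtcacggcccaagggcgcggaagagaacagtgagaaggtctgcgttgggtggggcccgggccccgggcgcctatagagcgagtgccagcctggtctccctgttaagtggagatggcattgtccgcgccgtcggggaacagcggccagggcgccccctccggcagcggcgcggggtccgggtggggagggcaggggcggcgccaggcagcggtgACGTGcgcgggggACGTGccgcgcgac
The Ldha window held 2 matches on the strand shown and 3 on the other, of which 2 on each strand share the palindrome CACGTG (present in 6.02% of all windows). The Slc16a1 window held 1 on each strand, again as a CACGTG, and the Slc16a3 window held 2 on the strand shown and no CACGTG. The further Ldha window and those of Ldhb, Mpc1 and Mpc2 held no match, which says only that these letters are not in those bases.

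**Figure D5:**
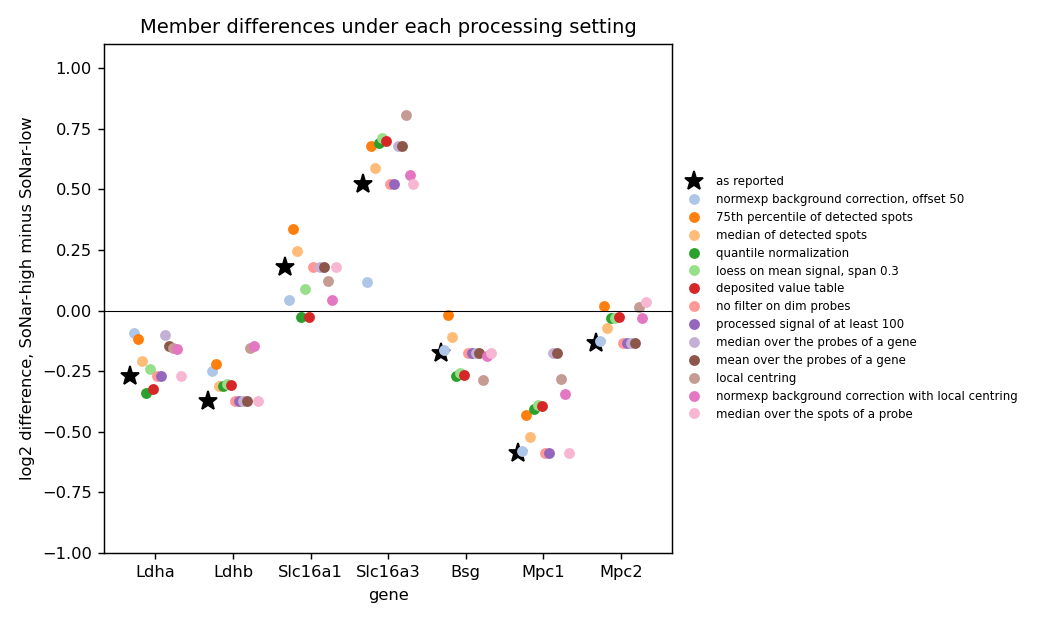
Log2 difference (SoNar-high minus SoNar-low) of each member, by its brightest probe unless a setting says otherwise, under each processing setting; stars are the values in the text and coloured points the alternatives. Slc16a3 lies between 0.12 and 0.81, Ldha between -0.34 and -0.09, and Slc16a1 and Mpc2 have points on both sides of 0.

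Slc4a1, the anion exchanger of red cells, had 7107 units in SoNar-high cells and 2884 units in SoNar-low cells (1.55), and was measured on both arrays, as the label of blood cells calls for. Afp, made by hepatoblasts, was measured on both as well, at 5219 units in SoNar-high and 2343 units in SoNar-low cells (1.42). Markers of several cell types differed between the same arrays by more than the members did. For the counts that follow, 5.28% of all measured genes were at least 2-fold higher and 4.44% lower. Of 9 measured erythroid markers, 7 were at least 2-fold higher and none lower, with a summed processed signal of 16442 units in SoNar-high and 8037 units in SoNar-low cells. The sums of this and the following lists are before scaling and weigh bright probes most, whereas the counts rest on scaled differences. Macrophage markers had 8 of 9 at least 2-fold higher (sum 19001 units in SoNar-high and 8596 units in SoNar-low cells), hepatoblast markers 6 of 8 (15733 units in SoNar-high, 6678 units in SoNar-low cells) and endothelial and mesenchymal markers 7 of 9 higher and 1 lower (5547 units in SoNar-high, 1864 units in SoNar-low cells). Neutrophil markers had 3 of 10 higher (210428 units in SoNar-high, 164960 units in SoNar-low cells) and megakaryocyte markers 1 of 7 higher (3513 units in SoNar-high, 3579 units in SoNar-low cells). By scaled differences 6 of these 7 megakaryocyte markers were above 0 and 1 was below. Stem and progenitor markers had 3 of 10 at least 2-fold lower (9824 units in SoNar-high, 21239 units in SoNar-low cells) and lymphoid markers 7 of 10 lower (4525 units in SoNar-high, 19705 units in SoNar-low cells). The part of these cell types in the differences of Slc16a3 and the other members was not tested, and in these bulk samples a change in the share of a cell type and a change of RNA per cell cannot be told apart.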

How the data were processed

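Total RNA of sorted blood cells from fetal liver was labelled with Cy3 and hybridised to 1 array per population; the source label gave the group. Spot intensity values (processed signal, its error, pixel medians and local background) were deposited by the authors as output of Agilent Feature Extraction, version 11.0.1.1 per the file headers and 9.1 per the submitters' processing notes; the difference was left unresolved. The software subtracted background and reports spatial and multiplicative detrending fits, per the file headers. A deposited table holds the authors' log2 values, normalized by a method not named in the sources used here. The median of both columns was 4.80, and the sorted columns differed by at most 0.0005. Both columns thus share the same distribution, which quantile normalization gives. The deposited table nearly repeats the quantile setting and is not separate evidence beside it. Over measured probes its differences and those of the scanner files had r = 0.966, so it was an alternative with known direction.

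Controls and outlier spots (225 for SoNar-high, 135 for SoNar-low cells) were removed. No non-control spot was saturated. Log2 values were scaled to the 75th percentile, and spots of a probe were averaged (39429 probes). Measured probes (15975) had the above-background flag at most of their spots on each array. Genes were named through transcript accessions in the RefSeq table of GRCm38.p6, used for names and promoter sequences only, since the array design refers to mm9; 27234 probes matched a gene. A gene below background on 1 array was given a bound against its own value there or that array's dimmest flagged probe, whichever was higher.

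No test was possible with 1 array per group, and genes were counted by a fixed size of 2-fold. All probes of the members are named; from each related list the 2 genes with the largest absolute difference, the brightest gene and genes with a bound of at least 2-fold are named, with exceptions said in the text, and of the marker lists only counts and sums are given, beside Slc4a1 and Afp. The members and lists were chosen with earlier results of these data known. Alternatives were normexp (offset 50, on pixel medians), 4 other scalings, the deposited log2 table, dim probes kept, a signal of at least 100, the median or mean over probes, and thresholds of 1.5-fold and 3-fold. Local centring, alone and with normexp, and the median over spots were chosen after seeing the data. A member's value counted as moved beyond the spot SD of 0.148, and a difference between members beyond 0.21, the spot SD of such a difference. Counting was tested on simulated data. Python 3.11.15, pandas 2.3.3, R 4.3.3 and limma 3.58.1 were used.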

Additional observations from a re-analysis of the deposited data

How the results depend on the processing

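None of the 7 members reached 2-fold in either direction under any of 13 alternatives. At 1.5-fold, the values as reported had 1 gene lower, Mpc1, and none higher, and this count changed with the setting. After quantile normalization, loess or local centring, Slc16a3 was past 1.5-fold higher (0.69, 0.71 and 0.81), as in the deposited table (0.70). It was also past it with the percentile (0.68) or median (0.59) of detected spots and with either summary over probes (0.68). Mpc1 was not past 1.5-fold lower in any of these settings, at -0.52 to -0.18. It was past it only where a setting left the reported -0.59 unchanged. After normexp neither gene was past 1.5-fold (Slc16a3 0.12, Mpc1 -0.58), nor with local centring as well (0.56 and -0.35). Ldha, Ldhb, Bsg and Mpc1 were negative and Slc16a3 positive in all 14 settings by the probe or summary each used, while Slc16a1 turned negative in 2 and Mpc2 positive in 3. The 2 for Slc16a1 were quantile normalization and the deposited table, which nearly repeat each other. Several settings cannot move a gene with 1 probe on 1 spot (Ldhb, Slc16a1 and Bsg): the filters, the summaries over probes and the median over spots. Ldha minus Ldhb was -0.0278 after quantile normalization, -0.013 in the deposited table, -0.0015 after local centring and -0.0098 with normexp as well. Values that moved by more than the spot SD (0.148 for a member, 0.21 for a difference between members) were as follows. With the 75th percentile taken over detected spots, a shift of 0.15 in the median over genes, Ldha had -0.12, Ldhb -0.22, Slc16a1 0.34, Slc16a3 0.68, Bsg -0.020, Mpc1 -0.43, Mpc2 0.019 and the member median -0.020. After normexp, Ldha had -0.094 and Slc16a3 0.12, and Slc16a3 minus Slc16a1 was 0.073. After quantile normalization, Slc16a1 had -0.025, Slc16a3 0.69 and Mpc1 -0.41, and Slc16a3 minus Slc16a1 was 0.72. In the deposited value table these were -0.0248, 0.70, -0.39 and 0.72. After loess, Slc16a3 had 0.71 and Mpc1 -0.39, and Slc16a3 minus Slc16a1 was 0.62. With the median over probes Ldha had -0.10, and with the median or the mean over probes Slc16a3 had 0.68 and Mpc1 -0.18, and Mpc1 minus Mpc2 was -0.041. After local centring, Ldhb had -0.15, Slc16a3 0.81, Mpc1 -0.28 and Mpc2 0.015, and Slc16a3 minus Slc16a1 was 0.69; with normexp as well, Ldhb had -0.15 and Mpc1 -0.35. With the median over spots Mpc2 had 0.035. Why the settings differ was not tested, except that the medians and means over probes mix the differing probes of Mpc1 and Slc16a3 by construction. With a signal of at least 100 Slc16a1 gave no value.

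Over all measured genes, 540 were at least 2-fold higher and 454 lower. The split was 782 and 247 with the percentile of detected spots, 640 and 353 with their median, 660 and 283 after local centring, 302 and 124 after normexp with local centring, 251 and 257 after normexp, 2476 and 659 with dim probes kept (the median over genes shifted by 0.11), and 592 and 384 after loess. With a signal of at least 100 it was 329 and 314, at 1.5-fold 1408 and 1809, and at 3-fold 146 and 48. No paired analysis was possible because each group holds 1 array. Signal over background limits Slc16a1 and Bsg most, whose differences were smaller than their scanner errors of 0.30 and 0.24.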

Other observations

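Probes other than that of Mpc2 also varied with slide position. Over 1946 spots of the other 212 probes printed 10 times, the deviation of a spot's log2 difference from the mean of its probe correlated with the deviation of its local median at r = 0.50, where spots of a probe share their target and neighbouring spots share a region of the slide. The median SD over spots of a probe was 0.12 after local centring, against 0.15 before it. Spots varied less on the SoNar-high array (median SD 0.07) than on the SoNar-low array (0.13), and the file headers report detrending fits for both. Over the 17722 spots measured on both arrays, the central 90% of local medians lay between -0.31 and 0.09, a range comparable to the differences of Ldha, Ldhb, Bsg and Slc16a1.

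Between probes of the same gene local centring changed less. Among the 2021 genes measured by several probes, 55.3% had a smaller gap between their highest and lowest probe after it, and the median gap was 0.39 after and 0.41 before. For Slc16a3 the gap was 0.04 after and 0.31 before, for Mpc1 0.50 and 0.82, and for Ldha 0.20 and 0.20.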
